A study of Homo sapiens with 8 samples.

Results

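*CD44*, *NT5E*, *CD24*, *PROM1*, *EPCAM*, *ALCAM*, *ALDH1A1*, *ALDH1A3*, *CXCR4* and *L1CAM* encode surface proteins and enzymes that are used to mark stem-like cells in pancreatic and other tumors. These 10 of 19993 protein-coding genes were taken as a list, and all H3K27ac peaks in each gene and 50 kb either side were collected. They were chosen by name when their peak values in these same lists were known, so the presence, place and signal of their peaks are given as a description, with no test. H3K27ac is acetylation of lysine 27 of histone H3, and it was mapped by ChIP-sequencing in a pair of stable lines made from MIA PaCa-2, a human pancreatic carcinoma line of epithelial origin. Both lines carried the lentiMPHv2 plasmid and a lentiSAMv2 plasmid, the parts of a CRISPR activation system. In MP2_HDAC1_OE the guide RNA activated the cell's own *HDAC1*, which encodes a histone deacetylase, and in MP2_NTC the guide was a scrambled, non-targeting one. Each line had 2 H3K27ac samples and 2 samples made without an antibody. Whether a line grew from 1 clone is not given in the sources used here, and 1 line of each kind has a peak list here, so a difference between the guides cannot be told apart from a difference between the lines.

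The peaks of a line come as 1 list from the authors, the optimal set of a test of reproducibility (IDR) made for the line as a whole. The list does not say in which of the 2 H3K27ac samples a peak was found. The MP2_HDAC1_OE list holds 25045 peaks with a median signal of 46.5 (11.01 to 185), and the MP2_NTC list holds 22569 peaks with a median signal of 49.3 (11.7 to 220). The lists hold no replicates and no read counts, so no value below has an SD and the sequencing depth is unknown. The scale of the signal may differ between the lists. Each peak is therefore also given a percentile, the percentage of peaks in its own list with a lower signal. Peaks of both lines that shared at least 1 bp were merged into regions. Of 18678 regions in all, 28.6% had peaks of MP2_HDAC1_OE alone, 20.7% had peaks of MP2_NTC alone and 50.7% were shared. A gene that has no peak in a list did not pass the authors' threshold there, and weaker acetylation may be present. *KRT8*, *KRT18* and *CLDN4*, genes of epithelial cells, had shared regions at a gene end, *KRT19* had a separate region in each line, and *CDH1* and *EPCAM* had none. Among mesenchymal genes *VIM* and *ZEB1* had shared regions and *FN1* and *CDH2* had none. The leukocyte genes *PTPRC*, *CD3E* and *ITGAM* had no region, and *CD14* had a region in MP2_NTC alone at percentile 24.4. Of the endothelial genes, *PECAM1* had none and *CDH5* had a shared region.

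H3K27ac is laid down by acetyltransferases such as p300 and CBP at active promoters and enhancers, and deacetylases such as HDAC1 can remove it. CD44 binds hyaluronan in the matrix, NT5E (CD73) makes adenosine from AMP outside the cell, and aldehyde dehydrogenases of the ALDH1A family make retinoic acid from retinal. CD24, PROM1 (CD133), EPCAM, ALCAM (CD166) and L1CAM are surface or adhesion proteins, and CXCR4 is the receptor of the chemokine CXCL12. Cells sorted for combinations of these proteins, or for aldehyde dehydrogenase activity, have been used as tumor-initiating fractions in pancreatic cancer.

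The 10 genes divided evenly into 5 with at least 1 region in the gene or within 50 kb and 5 with none. *CD44*, *NT5E*, *EPCAM*, *ALDH1A1* and *L1CAM* had regions, whereas *CD24*, *PROM1*, *ALCAM*, *ALDH1A3* and *CXCR4* had none in either line. The same window held a region for 71.6% of all coding genes, so the 5 of 10 here lay below that share, although the median window of these genes was wider (141 kb against 124 kb). The 5 genes held 12 regions, of which 7 had peaks of MP2_HDAC1_OE alone, 2 had peaks of MP2_NTC alone and 3 were shared. A region of MP2_HDAC1_OE alone was present at 4 of 10 genes (*CD44*, *NT5E*, *ALDH1A1* and *L1CAM*), against 36.7% of all coding genes. A region of MP2_NTC alone was present at 2 of 10 (*CD44* and *ALDH1A1*), against 33.2%. With 10 genes these shares are coarse. By region, the 7 of 12 in MP2_HDAC1_OE alone (58.3%) stood beside 28.6% of all regions, and the 7 came from 4 genes. The sets differ in place, since 9 of the 12 lay away from the ends of these genes. The 28.6% covers regions at gene ends and away from them.

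At the gene ends, taken at both ends of a gene as the 2 kb beyond it and the 1 kb within it, 3 of 10 genes had a region, against 48.6% of coding genes. Each of the 3 was in a different state. The region at the start of *CD44* was shared, a state found in 36.1% of coding genes. The start of *NT5E* had peaks of MP2_HDAC1_OE alone, as did the ends of 6.19% of coding genes, and the start of *ALDH1A1* had a peak in MP2_NTC alone, as in 5.08%. Over the whole window, *NT5E* and *ALDH1A1* had regions and none of them shared, which held for 10.3% of coding genes. All regions of *NT5E* were of MP2_HDAC1_OE alone, which held for 4.26%.

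**Figure D1:**
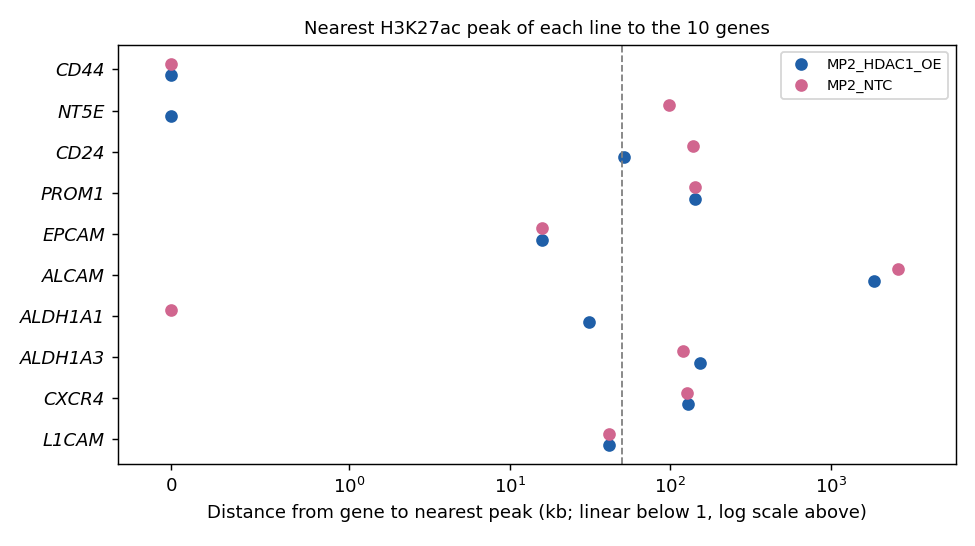
Distance in kb from each of the 10 genes to the nearest H3K27ac peak of MP2_HDAC1_OE (blue) and MP2_NTC (pink), on an axis that is linear below 1 kb and logarithmic above, with the 50 kb limit dashed. Peaks of both lines touch *CD44*, a peak of 1 line touches *NT5E* (MP2_HDAC1_OE) and *ALDH1A1* (MP2_NTC), and *ALCAM* lies farthest from any peak, at 1854 and 2645 kb.

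The sequences at 4 gene starts are shown because they span the states found: shared (*CD44*), in MP2_HDAC1_OE alone (*NT5E*), in MP2_NTC alone (*ALDH1A1*) and without a peak (*ALDH1A3*). Each runs 5′ to 3′ on the strand of the gene from 250 bases before its start to 50 bases after, as given by RefSeq for GRCh38.p14. The intervals are chr11:35138921-35139220 on the plus strand for *CD44*, chr6:85449833-85450132 on the plus strand for *NT5E*, chr9:72953004-72953303 on the minus strand for *ALDH1A1* and chr15:100879581-100879880 on the plus strand for *ALDH1A3*. Capitals mark matches on either strand to GGGCGG (the GC box, reverse CCGCCC) or CACCTG (an E-box, reverse CAGGTG). Matches may overlap, and a match marks letters only.
CD44: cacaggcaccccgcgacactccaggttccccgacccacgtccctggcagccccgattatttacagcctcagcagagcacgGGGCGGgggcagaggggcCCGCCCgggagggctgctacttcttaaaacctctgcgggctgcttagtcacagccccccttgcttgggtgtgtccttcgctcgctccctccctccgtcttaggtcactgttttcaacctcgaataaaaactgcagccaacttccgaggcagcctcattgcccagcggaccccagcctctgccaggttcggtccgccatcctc
NT5E: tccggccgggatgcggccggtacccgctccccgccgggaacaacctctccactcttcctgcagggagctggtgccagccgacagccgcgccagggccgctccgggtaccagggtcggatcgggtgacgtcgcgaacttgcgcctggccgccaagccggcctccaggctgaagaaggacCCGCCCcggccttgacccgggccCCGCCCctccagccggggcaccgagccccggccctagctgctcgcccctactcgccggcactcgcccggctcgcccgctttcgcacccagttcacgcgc
ALDH1A1: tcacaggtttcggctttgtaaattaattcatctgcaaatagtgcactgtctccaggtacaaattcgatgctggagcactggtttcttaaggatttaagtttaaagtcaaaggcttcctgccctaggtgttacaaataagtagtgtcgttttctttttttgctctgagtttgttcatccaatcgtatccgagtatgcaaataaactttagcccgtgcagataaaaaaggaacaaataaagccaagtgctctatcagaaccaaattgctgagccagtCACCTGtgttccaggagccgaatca
ALDH1A3: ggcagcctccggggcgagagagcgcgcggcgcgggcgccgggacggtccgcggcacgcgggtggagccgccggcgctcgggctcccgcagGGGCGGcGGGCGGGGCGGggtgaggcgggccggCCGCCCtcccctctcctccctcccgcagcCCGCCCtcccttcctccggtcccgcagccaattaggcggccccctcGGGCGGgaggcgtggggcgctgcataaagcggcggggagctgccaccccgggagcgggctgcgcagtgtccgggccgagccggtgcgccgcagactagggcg

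These promoters differed in base composition. The GC content was 63.3% at *CD44*, 75% at *NT5E*, 40.3% at *ALDH1A1* and 81.7% at *ALDH1A3*, against a median of 58.7% over 35116 promoters of 300 bp. The 2 GC boxes of *CD44* and the 2 of *NT5E* compared with 6 in *ALDH1A3*, and the *ALDH1A1* sequence had 1 E-box and no GC box. A GC box was found in 45.0% and CACCTG in 20.6% of all promoters. Peaks of MP2_HDAC1_OE covered all 300 bases at *NT5E* and 83 bases at *CD44*, where an MP2_NTC peak covered 10. The MP2_NTC peak of *ALDH1A1* covered 284 of its 300 bases. *ALDH1A3*, with the highest GC content of the 4, had no peak in either line, while 49.1% of promoters with at least 60% GC and 14.4% of those below overlapped a peak.

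The table of promoters matched 9 of the 10 genes with 17 entries, and *EPCAM* had none. Of the 17 entries, 14 had no peak, and 11 of these 14 had at least 60% GC. A GC box was found in 12 of the 17 entries and CACCTG in 6, against 45.0% and 20.6% of all promoters. By gene these were 8 of 9 and 4 of 9. A gene has up to 4 entries here, and entries of 1 gene can overlap, so counts by gene are not comparable with shares of promoters. The letters TGANTCA, the AP-1 site, were found in an entry of *PROM1* alone and in 7.71% of all promoters. GGAATG, the TEAD site, was found in an entry of *CD24* alone and in 14.03% of promoters. TATAAA was found in the entry at the *CXCR4* start alone and in 11.5% of promoters. None of these entries of *PROM1*, *CD24* and *CXCR4* overlapped a peak.

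*CD44* (gene 960, chr11:35139171-35232402, plus strand) had 4 regions, all of which overlapped the gene: 1 shared at its start, 1 of MP2_NTC alone and 2 of MP2_HDAC1_OE alone within the gene. At the start, the MP2_HDAC1_OE peak (chr11:35139138-35139530) had its summit 178 bp after the gene start, with a signal of 56.4 at percentile 66.9. The stronger MP2_NTC peak (chr11:35139358-35139582) had its summit at 249 bp, with a signal of 63.9 at percentile 70.9. The start of *CD44* was thus in the upper part of both lists, with a difference of −3.96 percentile points (MP2_HDAC1_OE minus MP2_NTC). A second MP2_NTC peak there (chr11:35139211-35140030, summit at 450 bp) had a signal of 15.8 at percentile 3.94, near the bottom of its list. The start region also lies at an end of *CD44-DT*, the divergent transcript of the same promoter, and the peaks do not tell which of these genes they belong to. When single peaks had to overlap by 50% of both peaks, the *CD44* start had no shared peak. The MP2_HDAC1_OE peak is 393 bp wide and the MP2_NTC peaks are 225 and 820 bp wide.

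Within the gene the lines did not share a peak. MP2_NTC had a peak with its summit 27.7 kb after the start (chr11:35166494-35167313) and a signal of 24.9, at percentile 13.5. MP2_HDAC1_OE had a peak 53.3 kb after the start (chr11:35192020-35192839) with a signal of 46.7 at percentile 50.5. A further MP2_HDAC1_OE peak lay at 88.4 kb (chr11:35227180-35227999), with a signal of 36.3 at percentile 29.5. The nearest MP2_NTC peak was 24.7 kb from the former and 59.9 kb from the latter. The MP2_HDAC1_OE peaks thus ranked higher in their list than the MP2_NTC peak did in its own. None of the 3 lies at an end of another annotated gene, and exons and introns were not told apart here.

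*NT5E* (gene 4907, chr6:85450083-85495784, plus strand) had 5 peaks in MP2_HDAC1_OE and 0 in MP2_NTC. All 5 were 820 bp wide, as were 20 of the 24 peaks collected for the 10 genes. They overlapped into 2 regions, so 5 is not a number of separate sites. The start of *NT5E* lay in a region of 1434 bp (chr6:85449422-85450855) made of 3 overlapping MP2_HDAC1_OE peaks. Their summits were 251 bp before the start and 122 and 363 bp after it. The middle peak was the strongest, with a signal of 65.4 at percentile 77.7, and its neighbours had 47.0 at percentile 51.1 and 55.3 at percentile 65.2. All 3 were above the median of the list. The nearest MP2_NTC peak (chr6:85593364-85593717, signal 47.0, percentile 45.7) was 142.5 kb from this region and 97.6 kb beyond the gene. A second region within *NT5E* (chr6:85458912-85460107) had summits 9.24 and 9.62 kb after the start. Its signals were 17.5 at percentile 6.71 and 29.1 at percentile 20.4, so it ranked well below the region at the start.

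*ALDH1A1* (gene 216, chr9:72900671-72953053, minus strand) showed the opposite state at its start, with a peak in MP2_NTC alone (chr9:72953020-72953839). The summit lay 377 bp before the start, with a signal of 21.3 at percentile 9.71. This peak was among the weakest of its list, and it was not present when the 75% of peaks with the highest signal were kept. MP2_HDAC1_OE had its peaks away from the gene. Upstream, 31.0 kb from the gene, a pair of overlapping peaks (chr9:72984102-72985127) had signals of 49.9 and 48.4, at percentiles 56.4 and 53.6. Downstream, 42.1 kb from the gene, a peak at an end of *LOC124902181* (chr9:72857753-72858572) had a signal of 42.6 at percentile 42.2. Each peak of MP2_HDAC1_OE around *ALDH1A1* therefore ranked higher in its list than the MP2_NTC peak at the start ranked in its own. The nearest peak of the other line was 30.3 kb from the upstream region. *ALDH1A3* (gene 220, chr15:100879831-100916626, plus strand), the related enzyme, had its nearest peaks 152.3 kb away in MP2_HDAC1_OE and 119.9 kb away in MP2_NTC.

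**Figure D2:**
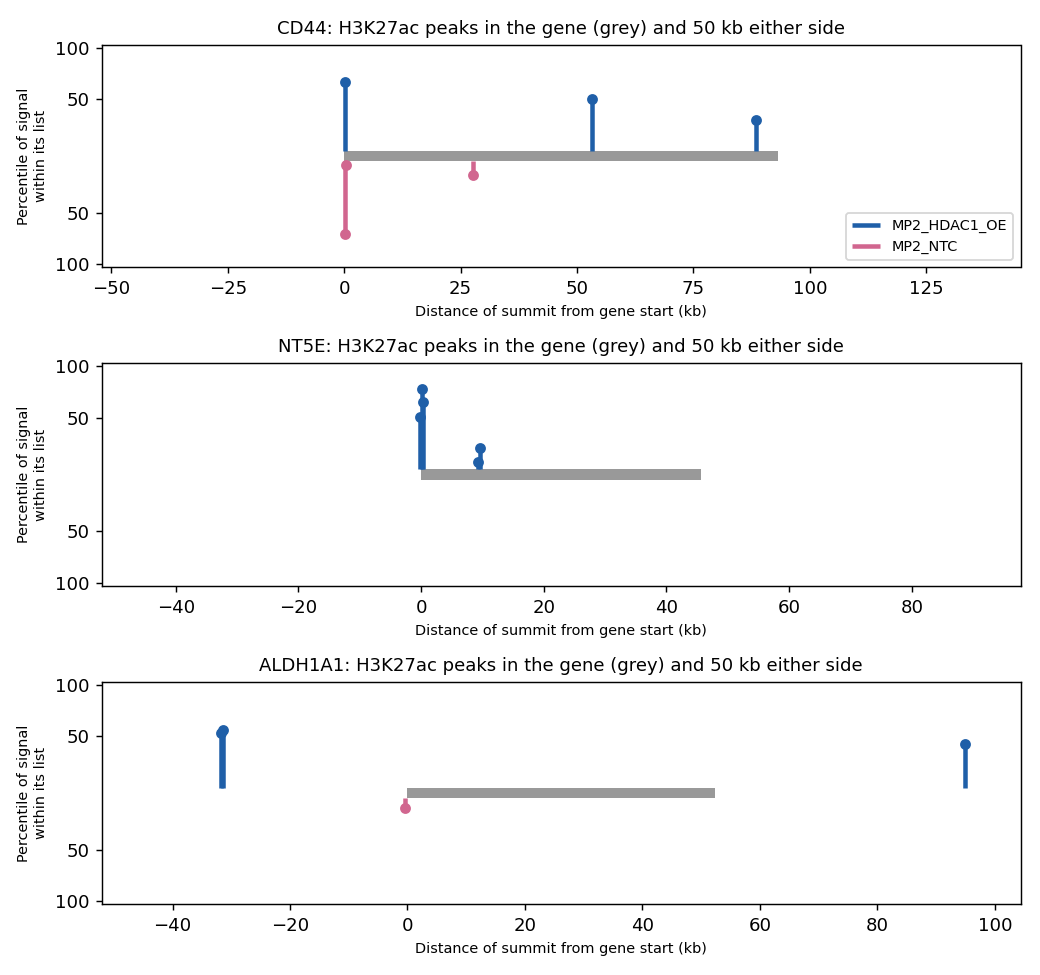
H3K27ac peaks at *CD44*, *NT5E* and *ALDH1A1*, with the distance of each summit from the gene start in kb on the horizontal axis and the percentile of its signal on the vertical axis, upwards for MP2_HDAC1_OE and downwards for MP2_NTC. The lines meet at the start of *CD44* (percentiles 66.9 and 70.9), MP2_HDAC1_OE alone has peaks at *NT5E*, and the MP2_NTC peak at the start of *ALDH1A1* is at percentile 9.71.

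The regions of *EPCAM* and *L1CAM* did not lie at the ends of these genes. *EPCAM*, the epithelial cell adhesion molecule (gene 4072, chr2:47369311-47387020), had 1 region, shared and 15.9 kb after the gene. The MP2_HDAC1_OE peak had a signal of 55.5 at percentile 65.6, and the MP2_NTC peaks had 54.01 at percentile 57.9 and 53.6 at percentile 57.3. *L1CAM*, a neural adhesion molecule (gene 3897, chrX:153861514-153886173, minus strand), had a shared region 41.5 kb upstream (chrX:153927626-153928247) at ends of *ARHGAP4* and *NAA10*. It was the strongest region of the 12 in both lists, with a signal of 103 at percentile 96.8 in MP2_HDAC1_OE and 93.1 at percentile 91.3 in MP2_NTC. Farther upstream, at 48.1 kb, 4 overlapping MP2_HDAC1_OE peaks (chrX:153934302-153936096) lay at ends of *NAA10* and *RENBP*. Their signals of 26.1, 29.1, 37.2 and 22.3 were at percentiles of 12.5 to 31.1, and the nearest MP2_NTC peak was 6.22 kb away. Both regions counted for *L1CAM* therefore lay at the ends of other genes.

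The shared regions were compared by the percentile in MP2_HDAC1_OE minus that in MP2_NTC. The difference was −3.96 points at the start of *CD44*, which ranked lower in MP2_HDAC1_OE, and 7.73 and 5.46 points at the regions near *EPCAM* and *L1CAM*, which ranked higher. Over all shared regions the median was 1.51 points higher, with quartiles of −10.4 and 15.6, so all 3 lay between the quartiles. Of all shared regions, 35.1% had a lower difference than *CD44*, 63.1% a lower one than *EPCAM* and 58.8% a lower one than *L1CAM*. When the signals of the peaks in a region were added up before ranking, the difference was −14.9 points for *CD44* (percentile 37.7 against 52.6) and turned to −32.1 points for *EPCAM*. *L1CAM*, with a single peak per line, stayed higher, by 9.49 points. The direction for *EPCAM* thus depended on whether 1 or all of its peaks were counted.

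**Figure D3:**
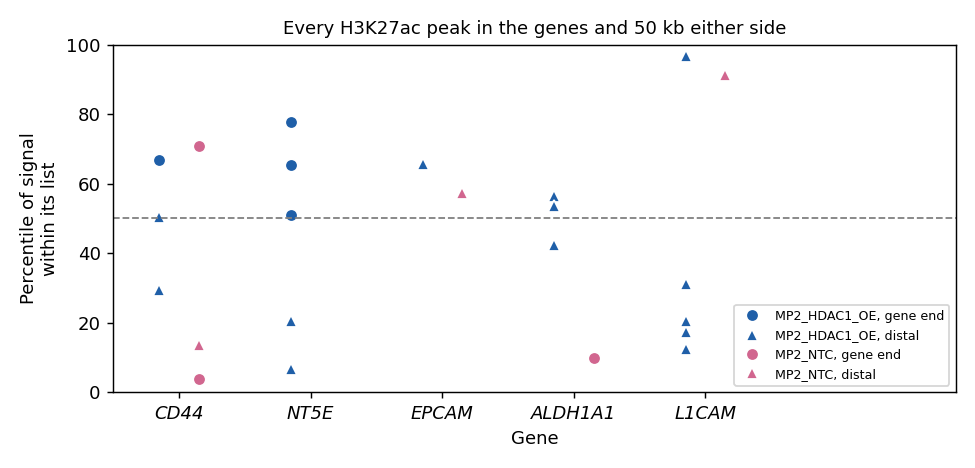
Percentile of signal within its own list for every H3K27ac peak at the 5 genes with regions, with circles for gene ends, triangles for distal peaks and the list median dashed. The 3 *NT5E* peaks at the gene start are between percentiles 51.1 and 77.7, the highest points are the shared peaks near *L1CAM* (96.8 and 91.3), and the lowest is the wider MP2_NTC peak at the *CD44* start (3.94).

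Of the 12 regions, 3 were at the ends of the 10 genes and 9 were distal. The distal ones were of MP2_HDAC1_OE alone in 6 cases, of MP2_NTC alone in 1 and shared in 2. The 4 distal regions that lay inside a gene, in *CD44* and *NT5E*, were of MP2_HDAC1_OE alone in 3 cases. The other 5 lay outside the genes, around *ALDH1A1*, *EPCAM* and *L1CAM*. Of the 9 distal regions, 4 lay at an end of another gene, and 4 of the remaining 5 were of MP2_HDAC1_OE alone. The same shares over all distal regions were not counted, so whether these 9 differ from distal regions in general is not known. The percentiles of the 7 regions of MP2_HDAC1_OE alone ran from 20.4, within *NT5E*, to 77.7, at its start, with a median of 42.2. The median was 41.6 over all regions of MP2_HDAC1_OE alone, so those of these genes ranked like the rest of their class. The regions of MP2_NTC alone, at percentiles 13.5 in *CD44* and 9.71 at *ALDH1A1*, were below the median of 39.2 of their class.

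The 5 genes without a region differed in how far they lay from the nearest peak. *CD24*, a small glycoprotein of the cell surface (chr6:106969831-106976855, minus strand), was just outside the 50 kb limit. Its nearest MP2_HDAC1_OE peak (chr6:107028264-107028676) was 51.4 kb away with a signal of 71.0 at percentile 82.6, and its nearest MP2_NTC peak was 137.9 kb away. For *PROM1*, which encodes the pentaspan membrane protein CD133 (chr4:15968228-16084023, minus strand), the nearest peaks of both lines were 141.9 kb away, in a shared region. *CXCR4*, the CXCL12 receptor (chr2:136114349-136118149, minus strand), was 128.7 kb from an MP2_HDAC1_OE peak and 128.1 kb from an MP2_NTC peak. *ALCAM*, a ligand of CD6 (chr3:105366909-105576900, plus strand), stood apart with 1854 kb to the nearest MP2_HDAC1_OE peak and 2645 kb to the nearest MP2_NTC peak. Of these genes, only *CD24* gained a region when the window was widened to 100 kb either side.

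Close to the 50 kb limit, the *L1CAM* region of MP2_HDAC1_OE alone at 48.1 kb was just inside. Just outside were regions of MP2_HDAC1_OE alone at 51.4 kb from *CD24*, at 55.5 kb from *CD44* (signal 51.3, percentile 59.0) and at 65.9 kb from *L1CAM*. The next were a region of MP2_HDAC1_OE alone 87.9 kb from *NT5E* and a shared region 96.6 kb from *EPCAM*. With windows of 100 kb the count in MP2_HDAC1_OE alone was 13 instead of 7, that in MP2_NTC alone was 5 instead of 2 and the shared count was 6 instead of 3. The added MP2_NTC regions lay at *NT5E*, which had 2 beside its 3 of MP2_HDAC1_OE alone, and at *CD44*, which had 2 instead of 1. Within 100 kb *NT5E* was thus no longer a gene with regions of MP2_HDAC1_OE alone, while its start had peaks of MP2_HDAC1_OE alone as before.

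*CD44* and *NT5E* lay in stretches of chromosome with contrasting shares of regions in 1 line. Within 5 Mb either side of *CD44*, its own window left out, 26 of 51 regions were of MP2_HDAC1_OE alone (51.0%) and 6 were of MP2_NTC alone (11.8%). On all of chromosome 11 these shares were 35.3% and 18.2%. Around *NT5E*, 7 of 40 regions were of MP2_HDAC1_OE alone (17.5%) and 13 were of MP2_NTC alone (32.5%), against 27.1% and 20.7% on chromosome 6. *NT5E* thus had its regions in MP2_HDAC1_OE alone among neighbours that were more often in MP2_NTC alone, whereas the *CD44* neighbourhood leaned to MP2_HDAC1_OE. The share in MP2_HDAC1_OE alone was highest around *ALDH1A3* (51.9% of 27 regions), a gene without a region of its own. Around *ALDH1A1* it was 24.0% of 25 regions. Around the other 6 genes it ran from 22.2% (*PROM1*, 9 regions) to 36.8% (*L1CAM*, 38 regions).

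**Figure D4:**
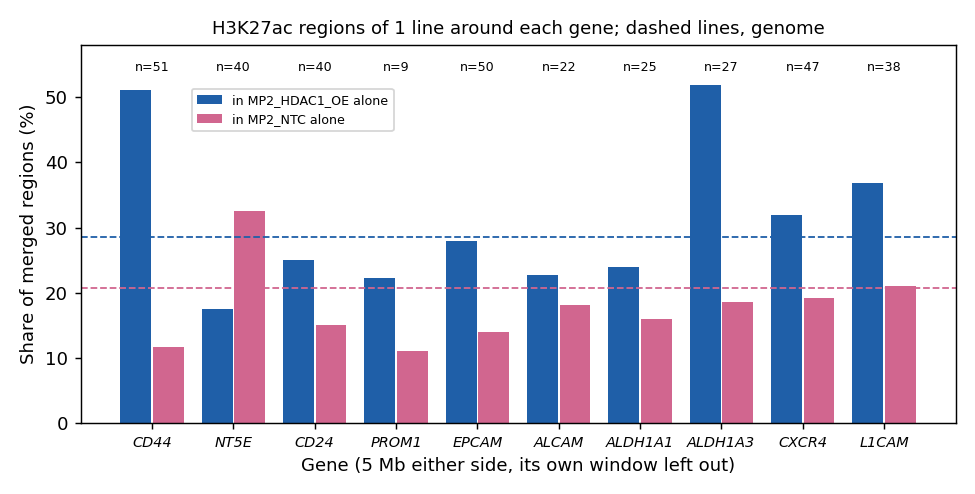
Percentage of merged H3K27ac regions with peaks of MP2_HDAC1_OE alone (blue bars) or MP2_NTC alone (pink bars) within 5 Mb either side of each gene, its own window left out, with the number of regions above each pair and the shares over all regions dashed (28.6% and 20.7%). *CD44* and *ALDH1A3* have the highest blue bars (51.0% and 51.9%), and *NT5E* is the only gene of the 10 whose pink bar exceeds its blue bar (32.5% against 17.5%).

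The partners of these proteins were described from 6 lists of 87 genes in all, by the state of their gene ends. Of the 87, 15 had a shared region (17.2%), 10 had regions of MP2_HDAC1_OE alone (11.5%), 4 had regions of MP2_NTC alone (4.60%), 2 had separate regions of both lines and 56 had none (64.4%). The shares over all coding genes were 36.1% shared, 6.19% in MP2_HDAC1_OE alone, 5.08% in MP2_NTC alone and 51.4% without a region. Genes with a region at an end were therefore less frequent among the 87 (35.6%) than over all coding genes (48.6%), and no test was made of the lists.

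Among 19 genes of *CD44* and hyaluronan, 3 had a shared region, 2 were in MP2_HDAC1_OE alone, 1 was in MP2_NTC alone, 1 had both and 12 had none. *EZR* and *RDX*, which encode ezrin and radixin and tie CD44 to the actin skeleton, were those in MP2_HDAC1_OE alone. The start of *EZR* had a pair of regions (chr6:158818492-158818847 and chr6:158818868-158820034) with signals of 55.3 at percentile 65.3 and 69.2 at percentile 81.1, and the nearest MP2_NTC peak was 29.0 kb away. Both regions also lie at an end of *EZR-AS1*. The start of *RDX* had regions with signals of 54.1 at percentile 63.4 and 22.2 at percentile 12.4, and the nearest MP2_NTC peak was 132 kb away. *MSN*, the gene of the related moesin, had no region. *HYAL1*, a hyaluronidase gene, had a region in MP2_NTC alone at its 3′ end, at percentile 27.2, which also lies at ends of *HYAL3* and *NAA80*. *ADAM10*, a sheddase of CD44, had separate regions at percentile 74.4 in MP2_HDAC1_OE and 20.2 in MP2_NTC. *ESRP2*, a splicing regulator of *CD44*, was shared at percentiles 88.0 and 83.9, and the hyaluronan synthase genes *HAS1*, *HAS2* and *HAS3* had no region.

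Of 14 genes for purine ectoenzymes and adenosine receptors, 4 were shared, 2 were in MP2_HDAC1_OE alone, 1 was in MP2_NTC alone and 7 had none. *ENTPD1* (CD39), whose enzyme makes the AMP that NT5E uses, had a region in MP2_HDAC1_OE alone at its start (chr10:95693216-95694234), with a signal of 74.1 at percentile 85.1. That region also lies at an end of *TCTN3*, and the nearest MP2_NTC peak was 36.1 kb away. *SLC29A1*, a nucleoside transporter, had a region in MP2_HDAC1_OE alone at its 3′ end, at percentile 25.8, with an MP2_NTC peak 2.81 kb away. *ADORA1*, an adenosine receptor, had a weak region in MP2_NTC alone at percentile 6.61. *ADORA2A*, *ADORA2B* and *ADORA3* had none, while *ADA* and *ADK*, whose enzymes clear adenosine, were shared.

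Of 20 genes for aldehyde dehydrogenases and retinoic acid, 5 were shared, 1 was in each line alone, 1 had separate regions of both and 12 had none. *ALDH1B1*, a mitochondrial aldehyde dehydrogenase gene, had a region in MP2_HDAC1_OE alone at its start (chr9:38392638-38393457), with a signal of 49.6 at percentile 55.8 and 226 kb to the nearest MP2_NTC peak. *ALDH7A1*, whose enzyme acts in lysine breakdown, had one in MP2_NTC alone at its start (chr5:126594849-126595150). Its signal was 79.1 at percentile 84.2, far above that of *ALDH1A1*, and an MP2_HDAC1_OE peak lay 5.82 kb away. *ALDH1A2* had no region, so of the ALDH1A genes only *ALDH1A1* had one at a gene end. Of the 4 genes of the CXCL12 axis of *CXCR4*, *MIF* had a shared region (percentiles 94.8 and 41.5) and *CXCL12*, *ACKR3* and *CD74* had none.

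Among 19 other stem and tumor-initiating markers, 2 were shared, 4 were in MP2_HDAC1_OE alone, 1 was in MP2_NTC alone and 12 had none. The 4 were *CD9*, *CD47*, *MET* and *SOX9*. The start of *CD9*, a tetraspanin gene (chr12:6200579-6201585), had a signal of 89 at percentile 93.0, with an MP2_NTC peak 5.82 kb away. The start of *CD47*, which encodes a signal against phagocytosis, had 59.4 at percentile 71.0 and 130 kb to the nearest MP2_NTC peak. *MET*, the receptor gene for hepatocyte growth factor, had 49.7 at percentile 56.0, and *SOX9*, a ductal transcription factor gene, had 47.7 at percentile 52.4 in a region that also lies at an end of *SOX9-AS1*. The distances to the nearest MP2_NTC peak were 51.3 kb for *MET* and 271.9 kb for *SOX9*. *ITGA6*, an integrin gene, was in MP2_NTC alone at percentile 27.2, and *KLF4* and *NES* were shared. Of 12 adhesion partners and relatives, *BCAM* alone had a region, in MP2_HDAC1_OE, at percentile 16.7.

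**Figure D5:**
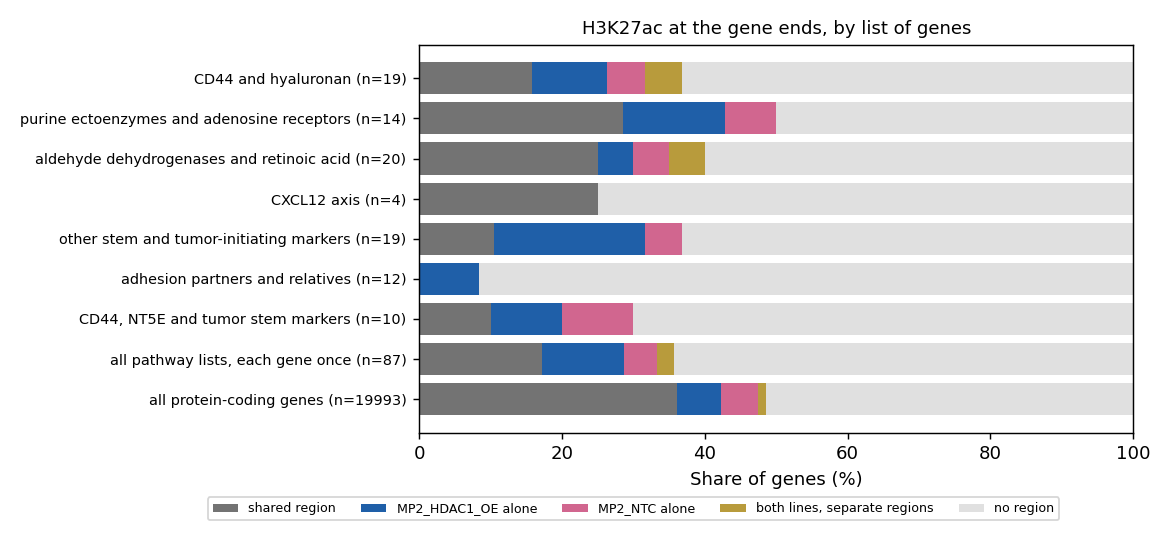
Percentage of genes by the state of their gene ends (shared, MP2_HDAC1_OE alone, MP2_NTC alone, both lines in separate regions, or none) for each list, for the 10 genes, for the 87 listed genes and for all 19993 coding genes. The share without a region is 64.4% over the 87 genes and 51.4% over all coding genes.

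The genes most like *CD44* and *NT5E* were sought by the numbers of gene-end and distal regions of each class. *CD44* had 1 shared region at its start with 2 distal regions of MP2_HDAC1_OE alone and 1 of MP2_NTC alone, and 12 other coding genes had the same counts. Closest to it by percentile in MP2_HDAC1_OE were *SEC61A2* (73.4), *NFKBIA* (58.3) and *DCTN2* (79.7). In MP2_NTC these genes were at percentiles 54.1, 91.6 and 41.8, against 70.9 for *CD44*. They thus matched its counts but not its rank in that line. *NT5E* shared its counts, 1 gene-end and 1 distal region of MP2_HDAC1_OE alone, with 48 other genes. *IFIT1* (77.8), *AAGAB* (78.8) and *COPRS* (80.1) had the percentiles nearest to its 77.7. The measure covers 2 lists and 6 counts, and many genes tie on it.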

How the data were processed

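H3K27ac ChIP-seq of MP2_HDAC1_OE and MP2_NTC was read as 75 bp single-end sequences, and was processed by the authors with ENCODE's pipeline. Their processing notes name hg38, BWA 0.7.12, SAMtools and Picard 1.88, and the peak caller is not given in the sources used here. The deposited file of each line is 1 list of peaks, which the labels call IDR-optimal, with a signal value per peak set by the authors' pipeline. Its scaling is not stated. Samples were grouped by their labels. The no-antibody samples enter through the authors' peak calling and have no list of their own. The genes and gene lists, and the rules for naming genes, were chosen with earlier results of these data known. All 10 genes, the listed genes with gene-end regions of 1 line alone, and the 3 genes most like *CD44* or *NT5E* were named, and further genes of the lists were named by their known roles after their values were seen.

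Peaks were merged at an overlap of 1 bp and placed against RefSeq genes (GRCh38.p14). Starts were read from the strand in the RefSeq promoter table. Percentiles were taken within a list. A marker gene and a neighbouring gene are not reported here. No test was run, because each list pools its samples, and neither the depth of a sample nor the precision it allows is known. The alternatives were single peaks with 50% overlap, the top 75% of peaks by signal, lists cut to equal numbers, merging across gaps of 500 bp, windows of 20 and 100 kb, other gene-end windows, ranks over merged intervals and summed signals. Merging and the 50% overlap rule were tested on simulated data, and the placing of regions against genes was not. The tools were pandas 2.3.3, numpy 2.4.6 and matplotlib 3.10.9 under Python 3.11.15.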

Additional observations from a re-analysis of the deposited data

How the results depend on the processing

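Of 52 alternatives over 12 results, 33 changed no result by more than its set margin, 18 moved one and 1 reversed one. For counts the margin was a factor of 1.5. For ranks it was a 95% binomial interval from the number of peaks in a list, which does not measure how a rank varies between samples or cultures. Regions of MP2_HDAC1_OE alone, 7 as reported, came to 15 when single peaks had to overlap by 50% of both, 4 with windows of 20 kb and 13 with 100 kb. Regions of MP2_NTC alone, 2 as reported, came to 0 with the 75% of peaks with the highest signal, 4 with single peaks and 5 with 100 kb, where the shared count was 6. Genes with an MP2_NTC peak at a gene end fell to 1 (*CD44*) with the 75% of peaks. The median rank difference of the 3 shared regions, 5.46 points as reported, was 7.27 with the 75% of peaks, 3.95 with equal numbers of peaks and −14.9 with summed signals. With single peaks it was 6.59 over *EPCAM* and *L1CAM* alone, since *CD44*, the 1 region with a negative difference, had no shared peak. As the middle of 3 values, the median came from *L1CAM* as reported and with the 75%, and from *CD44* with summed signals. The 1 reversal thus sets *L1CAM* against *CD44*, which was at −3.96 points as reported. With summed signals *L1CAM* itself stayed positive at 9.49 points, and *EPCAM* turned to −32.1. With the 75% of peaks ranked anew and with ranks over merged intervals, the *CD44* start was at percentile 55.9 and 55.7 in MP2_HDAC1_OE and at 61.1 and 60.5 in MP2_NTC, and the *NT5E* start was at 70.3 and 68.8. Leaving out the weakest peaks of a list keeps the order of the others and lowers their percentiles by a fixed rule. The moves in rank with the 75% and with equal numbers of peaks therefore follow from the cut alone. They are nevertheless counted among the 18. The *ALDH1A1* peak of MP2_NTC was at 3.43 over merged intervals and had no value among the 75%, which leave it out. For the listed genes, alternatives chosen after seeing the data gave 8 to 11 in MP2_HDAC1_OE alone and 3 to 4 in MP2_NTC alone. No replicate could be left out and no depth is known, since each list pools both samples, so how far another culture would differ is not known. No paired analysis was possible because the lists carry no replicates.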
